A study of Mus musculus with 12 samples.

Results

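The kidney clears drugs, urate and metabolic waste through carriers of 2 superfamilies, and their transcripts were followed here through podocyte injury in the mouse. The genes were taken by symbol: the Slc22a, Slco and Slc47a genes of the solute carriers, and the Abcb, Abcc and Abcg genes of the ATP-binding cassette pumps, each with at least 10 counts summed over all libraries. This gave 60 of the 56722 genes in the count table. The rule itself used no measured difference between groups, but it was set with earlier results of these data known. All mice were Pod-TRECK, a genotype in which diphtheria toxin injures podocytes, the filtering cells of the glomerulus. The 4 groups, of 3 mice each, were untreated controls and mice that had received diphtheria toxin (100 ng, intraperitoneal) 5, 14 or 21 days before their whole kidneys were taken. Controls carried the same genotype and received no injection, so toxin and injection cannot be told apart. The sources used here do not state the promoter that drives the transgene, nor the age of the mice.

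As background, the proximal tubule does most of this work. Organic anions enter its cells from the blood through OAT carriers in exchange for dicarboxylates, and organic cations enter through OCT carriers. Both leave into urine through apical carriers and pumps such as MATE1, MRP2, MRP4, P-glycoprotein and BCRP. Urate is taken back by URAT1, and carnitine by OCTN2.

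Libraries held 31023852 to 46420299 counts. Day-21 replicate 2 stood apart from the rest of its group: on the first principal component of all tested genes, which held 66.15% of the variance, it lay at -36.8 and the other day-21 libraries at 73.04 and 80.13. The day-5 libraries lay between -44.48 and -37.44, and the control libraries between -95.81 and -85.97. Counts of calls over the whole set are therefore also given without that library, and those of single lists where it moved them by over 1.5 times. The targeted cells were checked by 5 podocyte markers, whose summed level was 263 to 283 CPM in controls and 82.5 to 99.5 CPM at day 5. Levels are CPM, the count of a gene scaled by its library's total and TMM factor, and values of a group are listed for replicates 1, 2 and 3. A gene is said to have risen or fallen where edgeR's quasi-likelihood test gave an adjusted p under 0.05 over all 19821 genes tested, and errors of log2 fold changes are standard errors.

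The transporter transcripts fell broadly by day 14. The summed level of all 60 genes was 7532, 7615 and 8101 CPM in controls from lowest to highest, 5672 to 6048 CPM at day 5, 1744 to 1768 CPM at day 14, and 1730, 2170 and 5574 CPM at day 21. Controls, day 5 and day 14 did not overlap, and the highest day-21 value was that of replicate 2. In a bulk sample, fewer cells of a type and less RNA per cell cannot be told apart.

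Of the 60 genes, 54 passed the filter on low counts and were tested. At day 14 against control, 37 of them fell and 12 rose, where 28.8% of all tested genes fell and 31.2% rose. Their median log2 fold change was -1.22, beside 0.0766 over all tested genes. At day 5, 5 fell and 6 rose, where 5.09% of all genes fell and 9.77% rose, with a median of -0.328 beside 0.00351 over all genes. By day 21, 26 were lower than control and 8 higher, where 18.5% of all genes were lower and 24.3% higher, with a median of -0.764 beside 0.0671. All 3 comparisons share the control libraries.

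The count at day 5 depended on day-21 replicate 2, which is in neither group compared. All 4 groups share 1 estimate of the spread. Leaving the library out also changed the genes tested and the scaling, and these effects were not separated. Without that library 55 of the genes were tested, and 24 fell and 7 rose at day 5, where 14.9% of all genes fell and 17.4% rose. At day 14 the counts were 37 and 13, beside 30.9% and 34.7% of all genes. At day 21 they were 37 and 11, beside 28.4% and 33.2%. Of the genes described below as called at day 5 with all libraries, Slc22a4, Slc22a15, Abcb1a, Abcb1b, Abcc4 and Slc13a2 were also called without that library.

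The CPM ranges told the same groups apart without a model. At day 14, all 3 libraries lay below all 3 controls for 36 of the 54 genes and above them for 13, where 34.3% and 38.6% of all tested genes did so. At day 5 the counts were 24 below and 6 above, beside 23.7% and 25.2% of all genes. At day 21 they were 34 below and 9 above, beside 20.9% and 24.3%. Day 14 lay wholly below day 5 for 36 genes and above it for 11, beside 35.5% and 35.4% of all genes. Day 21 lay below day 14 for 10 and above it for 11, beside 17.7% and 14.8%. Against day 5 it lay below for 20 and above for 6, beside 18% in each direction.

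Differences between the days were tested in the same fit. From day 5 to day 14, 32 genes fell and 10 rose, where 26.1% of all genes fell and 24.7% rose; without day-21 replicate 2 the counts were 35 and 11, beside 30.1% and 29.5%. From day 14 to day 21, 7 fell and 8 rose, where 7.57% fell and 7.03% rose. Day 21 lay below day 5 for 9 genes and above it for 7, where 11.8% and 15% of all genes did. In the joint test of any difference between the 4 groups, 51 of the 54 genes passed, beside 66.1% of all genes, and 52 of 55 without that library, beside 76.9%. Without day-21 replicate 2, the day-14 to day-21 counts were 9 lower and 6 higher, beside 11.4% and 12.5%, and day 21 lay below day 5 for 34 genes and above it for 8, beside 27.7% and 27.9%.

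**Figure D1:**
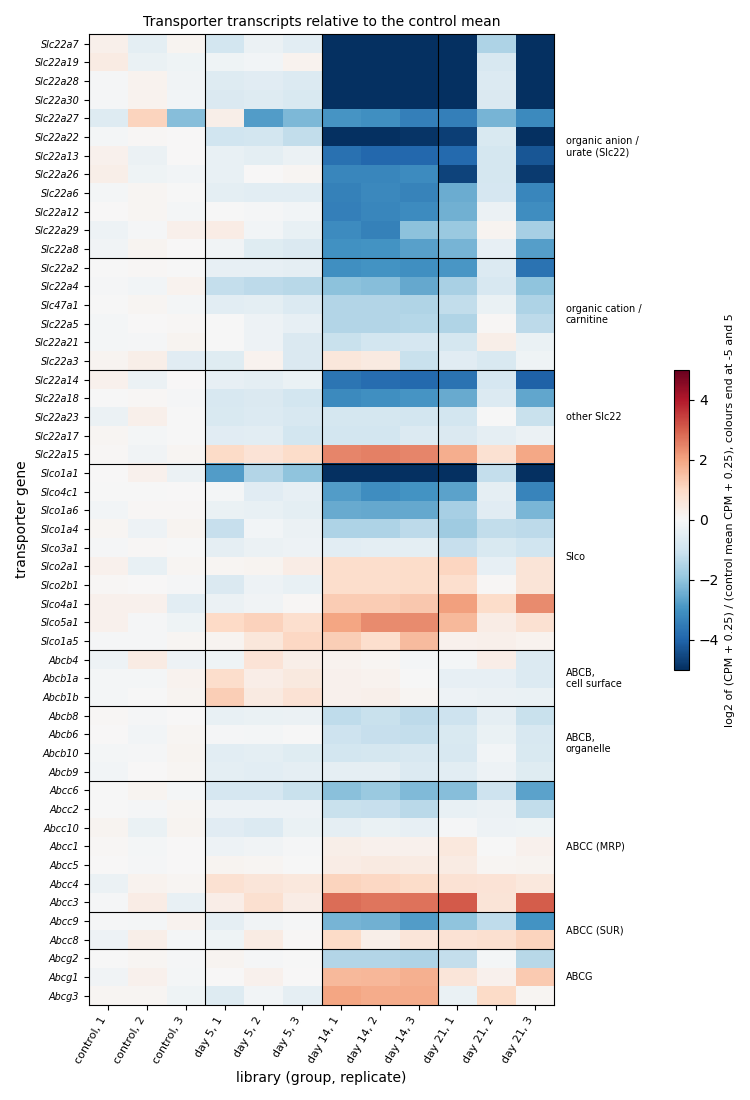
Level of 52 of the 54 tested transporter genes (vertical axis, grouped by role) in each of the 12 libraries (horizontal axis), as the log2 of CPM plus 0.25 over the control mean plus 0.25, with colours ending at -5 and 5. The organic anion carriers at the top are darkest blue at day 14 and in day-21 replicates 1 and 3, and day-21 replicate 2 resembles the day-5 libraries; under library totals in place of TMM factors, the day-14 direction of Abcb9, Abcc10 and Slco3a1 turns.

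The organic anion and urate carriers held the steepest falls. All 12 tested genes of this list fell at day 14, their median log2 fold change being -4.52, and under library totals in place of TMM factors 12 again fell (median -3.79). At day 5, 0 of the 12 passed edgeR's test with all libraries, 0 had an unadjusted p under 0.05, and DESeq2 called 0 of the 7 genes it gave an adjusted p. Without day-21 replicate 2, 7 fell at day 5. At day 21, 5 fell with all libraries and 12 without that replicate. DESeq2 gave an adjusted p for 7 of the 12 at day 14, and all 7 fell.

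Slc22a6 encodes OAT1, which takes organic anions from blood into the proximal tubule cell. It lies at chr19:8595403-8605663 (GRCm39) and measured 728, 834 and 766 CPM in controls, 557, 537 and 538 on day 5, 74.9, 83.2 and 77.2 on day 14 and 137, 431 and 81.2 on day 21. The 4 groups did not overlap apart from days 14 and 21, where day-21 replicate 3 lay within the day-14 range and replicate 2 lay below day 5. The fall at day 14 was -3.31 ± 0.49, adjusted p = 0.000255. At day 21 it was -1.84 ± 0.46, adjusted p = 0.0112, and -2.84 ± 0.18 without replicate 2. Its log2 fold change at day 5 was -0.51 ± 0.45, adjusted p = 0.495, and without day-21 replicate 2 it passed the test at the same size, with adjusted p = 0.0182.

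Slc22a8 encodes OAT3, the other main basolateral anion carrier of the tubule, and lies next to Slc22a6 at chr19:8568618-8589199. Controls held 316, 388 and 364 CPM, day 5 317, 236 and 217, day 14 43.6, 44.5 and 54.5 and day 21 70.5, 266 and 52.9. Day-14 libraries were far below all controls, and day 5 overlapped the control range. It fell at day 14 (-2.90 ± 0.51, adjusted p = 0.000673) and at day 21 (-1.46 ± 0.48, adjusted p = 0.0327, and -2.54 ± 0.19 without replicate 2). The day-21 call was lost without control replicate 1, 2 or 3 or day-21 replicate 1 or 3 (adjusted p = 0.0565 to 0.106).

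Slc22a12 encodes URAT1, the apical carrier that takes urate back from the filtrate, and lies at chr19:6585875-6593062. Per length it was the most abundant transcript of the set in controls. Its CPM was 1142, 1202 and 1060.5 in controls, 1117, 1084 and 1025 on day 5, 106, 117 and 127 on day 14 and 216, 921 and 132 on day 21. Day 5 overlapped control, and its log2 difference from control was -0.08 ± 0.53, adjusted p = 0.944. The day-14 values did not overlap control, with a fall of -3.28 ± 0.58, adjusted p = 0.000714. The difference at day 21 missed the threshold with all libraries (-1.42 ± 0.54, adjusted p = 0.0533) and passed it without replicate 2 (-2.72 ± 0.18, adjusted p = 1.32e-07).

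The promoter sequences of these 3 genes of chromosome 19, each of which fell at day 14, are shown as the 250 bases before the annotated start, 5′ to 3′, from RefSeq on build GRCm38.p6; that build differs from the GRCm39 of the counts, so the coordinates of the 2 are not comparable. They are shown for reading side by side, and nothing is marked by capitals.
Slc22a6, chr19:8617746-8617995, plus strand: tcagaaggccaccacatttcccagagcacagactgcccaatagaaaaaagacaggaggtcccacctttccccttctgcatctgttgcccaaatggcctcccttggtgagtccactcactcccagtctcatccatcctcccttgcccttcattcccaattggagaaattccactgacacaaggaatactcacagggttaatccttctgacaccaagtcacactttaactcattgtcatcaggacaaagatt
Slc22a8, chr19:8592932-8593181, plus strand: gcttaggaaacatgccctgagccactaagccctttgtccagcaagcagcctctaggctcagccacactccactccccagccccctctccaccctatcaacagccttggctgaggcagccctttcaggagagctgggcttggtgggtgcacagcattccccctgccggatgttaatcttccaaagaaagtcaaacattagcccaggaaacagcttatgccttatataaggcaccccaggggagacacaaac
Slc22a12, chr19:6543071-6543320, minus strand: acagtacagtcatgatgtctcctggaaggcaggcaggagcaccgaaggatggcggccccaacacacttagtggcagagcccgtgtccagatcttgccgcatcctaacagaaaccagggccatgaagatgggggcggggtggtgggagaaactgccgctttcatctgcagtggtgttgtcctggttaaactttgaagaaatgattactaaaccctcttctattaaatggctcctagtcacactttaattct

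Of the 60 genes, 46 matched a promoter by symbol. Their windows were searched on both strands for 10 patterns, given with the share of all RefSeq promoter windows of this length that hold each. They were CAAAGTCCA (0.384%), CAAAGGTCA (0.426%), TGACTCA (4.46%), TGACNNNGC (10.2%), TTCNNNGAA (7.02%) and an inverted repeat of the nuclear receptor half-site (0%). The rest were an NF-kB site (0.14%), TTGCGCAA (0.164%), a C/EBP site with open centre (5.28%) and TATAAA (12.4%). Of these patterns, 6 matched 0 of the 46 genes, and 0 of the 10 occurred in the 3 windows shown. TATAAA matched the most genes, 8, followed by TTCNNNGAA with 7 and TGACNNNGC with 5, among them Abcc2 and Abcc4. Counted by window, as the shares are, the 46 genes had 56 windows. TATAAA lay in 9 of these, TTCNNNGAA in 7 and TGACNNNGC in 6.

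Slc22a7, which encodes OAT2, had the steepest fall of the set. Its CPM was 150.2, 89.03 and 139 in controls, 65.9, 101 and 87.4 on day 5, 0.154, 0.123 and 0.122 on day 14 and 0.1695, 43.01 and 0.188 on day 21. Day 14 and day-21 replicates 1 and 3 were near the bottom of detection, while day-21 replicate 2 held 43.0 CPM. The log2 fold change at day 14 was -9.84 ± 1.99, adjusted p = 0.00158. At day 21 it was -3.14 ± 1.31, adjusted p = 0.0726 with all libraries, and -9.44 ± 0.39, adjusted p = 4.11e-09 without replicate 2.

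Slc22a13, which encodes the urate and nicotinate carrier OAT10, measured 112, 80.6 and 100.3 CPM in controls, 75.7, 70.03 and 80.2 on day 5, 7.19, 6.14 and 6.16 on day 14 and 6.32, 53.2 and 4.77 on day 21. It fell at day 14 by 3.91 ± 0.76 on the log2 scale (adjusted p = 0.00128). Its span overlaps that of Slc22a14 on the same strand, and the ratio of Slc22a14 to Slc22a13 counts stayed between 1.17 and 1.43 in all libraries, so the 2 are reported as uncertain. Slc22a29 measured 4.92, 5.72 and 7.13 CPM in controls, 0.444, 0.344 and 1.24 at day 14 and 1.45, 6.58 and 1.72 at day 21. Its fall at day 14 was -3.14 ± 0.63, adjusted p = 0.00148, and it rose again from day 14 to day 21 (2.25 ± 0.62, adjusted p = 0.0363), a difference that missed the threshold without day-21 replicate 2 (1.24 ± 0.44, adjusted p = 0.0592) and without day-14 replicate 1 or 2 (adjusted p = 0.128 to 0.13), and under the replicate block (adjusted p = 0.0714).

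The other 6 genes of this list, Slc22a19, Slc22a22, Slc22a26, Slc22a27, Slc22a28 and Slc22a30, fell at day 14 by between -3.34 ± 0.87 (Slc22a26) and -7.07 ± 1.48 (Slc22a19). Slc22a28 and Slc22a30 had a near-constant count ratio, 1.73 to 1.94 in all libraries, and may share reads. Slc22a27 rested on few counts: 8 at day 14 against 243 in controls, pooled over 3 libraries each, a ratio of 0.0245 (exact 95% interval 0.0104 to 0.049, counting error only). Of the Slc22a genes, 9 lie between 6585875 and 8605663 on chromosome 19, and all 9 fell at day 14, beside 28.8% of all tested genes. These 9 are already counted in this list. Among other groups of neighbours, 3 of 3 tested Slc22a genes on chromosome 11 fell. Of 4 tested Slco1 genes on chromosome 6, 3 fell and 1 rose, and of 3 Abcb genes on chromosome 5, 0 fell and 0 rose. These groupings were made after the values were seen, and neighbours are not independent of each other.

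**Figure D2:**
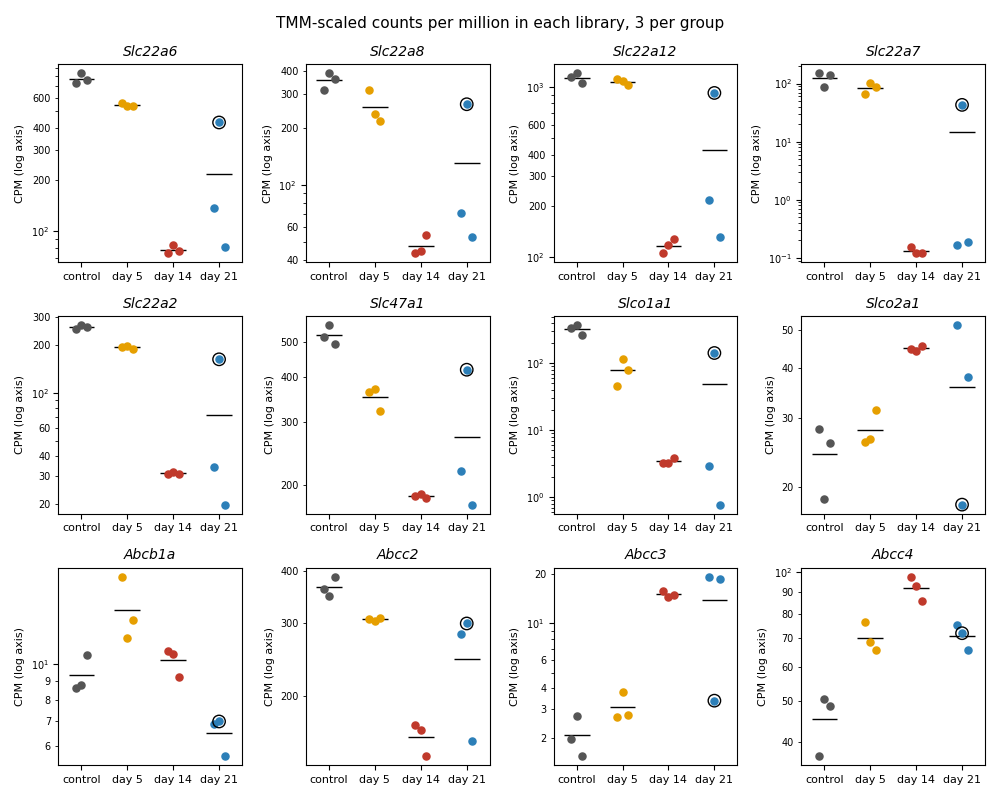
TMM-scaled CPM on log axes (vertical) of 12 transporter genes in each library of the 4 groups (horizontal), with a bar at the group mean and a ring around day-21 replicate 2. Slc22a6, Slc22a8, Slc22a12, Slc22a7, Slc22a2, Slc47a1 and Slco1a1 are lowest at day 14 and in day-21 replicates 1 and 3, Abcc3 is highest there, and Abcb1a is highest at day 5.

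The organic cation and carnitine carriers fell less steeply. At day 14, 6 of 7 tested genes fell, with a median of -1.48. At day 21, 4 fell with all libraries and 6 of 8 tested genes without day-21 replicate 2. At day 5 the counts were 1 and 4.

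Slc22a2 encodes OCT2, which takes organic cations from blood, and Slc47a1 encodes MATE1, which passes them into urine in exchange for protons. Slc22a2 measured 252, 266 and 258 CPM in controls, 194, 196 and 187 on day 5, 31.04, 32.1 and 31.00 on day 14 and 34.3, 162 and 19.9 on day 21. Its fall at day 14 was -3.04 ± 0.60, adjusted p = 0.00142, and at day 21 -1.84 ± 0.58, adjusted p = 0.0265, a call that was lost without control replicate 1, 2 or 3 or day-21 replicate 1 or 3 (adjusted p = 0.0529 to 0.0864). Slc47a1 measured 514, 556 and 492 CPM in controls, 362, 370.4 and 321 on day 5, 187, 189 and 185 on day 14 and 219, 418 and 177 on day 21. It fell at day 14 (-1.48 ± 0.26, adjusted p = 0.00062) and day 21 (-0.94 ± 0.25, adjusted p = 0.0147; lost without day-21 replicate 1, adjusted p = 0.0556), and at day 5 passed the test only in the fit without day-21 replicate 2 (-0.57 ± 0.09, adjusted p = 0.000449, against 0.159 with all libraries).

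Slc22a5 encodes OCTN2, the high-affinity carnitine carrier. Its CPM was 245, 268 and 270.4 in controls, 259.6, 219.97 and 196 on day 5, 93.4, 93.8 and 96.8 on day 14 and 91.98, 268 and 106 on day 21. Day-21 replicate 2 lay within the control range and the other day-21 libraries near day 14. It fell at day 14 (-1.46 ± 0.33, adjusted p = 0.00287). Its relative Slc22a21, also a carnitine carrier, measured 31.5, 32.7 and 36.9 CPM in controls, 15.3, 17.7 and 18.7 at day 14 and 18.3, 41.6 and 26.5 at day 21, with a fall at day 14 of -0.97 ± 0.26, adjusted p = 0.00793. Under library totals this call was lost (-0.24, adjusted p = 0.295).

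Slc22a4, which encodes the ergothioneine carrier OCTN1, was already lower at day 5. Controls held 46.4, 43.96 and 53.8 CPM, day 5 20.9, 18.99 and 18.3, day 14 11.4, 10.7 and 7.94 and day 21 15.6, 27.1 and 11.6. All libraries of the 3 days lay below all controls. The falls were -1.31 ± 0.26, adjusted p = 0.00638 at day 5, -2.26 ± 0.26, adjusted p = 6.91e-05 at day 14 and -1.41 ± 0.26, adjusted p = 0.00297 at day 21. Slc22a3, which encodes OCT3, held at most 1.18 CPM in any library and passed no test (0.19 ± 0.58 at day 14).

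Among the other SLC22 genes, 4 of 5 fell at day 14 and 1 rose; under library totals 2 fell and 1 rose. Slc22a15 was the one that rose. It measured 1.99, 1.66 and 2.04 CPM in controls, 3.93, 3.19 and 3.84 on day 5, 11.3, 12.1 and 11.5 on day 14 and 7.22, 3.37 and 8.01 on day 21. No day overlapped control, and day 14 was highest. The rises were 0.95 ± 0.27, adjusted p = 0.0381 at day 5, 2.62 ± 0.27, adjusted p = 3.61e-05 at day 14 and 1.71 ± 0.27, adjusted p = 0.00155 at day 21, and the step down from day 14 to day 21 also passed the test (-0.90 ± 0.25, adjusted p = 0.0377). The call at day 5 was lost under library totals (1.09, adjusted p = 0.0652) and without control replicate 1, 2 or 3 or day-5 replicate 1, 2 or 3 (adjusted p = 0.0636 to 0.131). The step down was lost without day-14 replicate 1, 2 or 3 (adjusted p = 0.0919 to 0.115). Slc22a18, an imprinted gene, measured 333, 352 and 328 CPM in controls, 196, 202 and 179.7 on day 5, 36.6, 40.4 and 43.2 on day 14 and 58.7, 208 and 55.1 on day 21. Its fall at day 14 was -3.07 ± 0.44, adjusted p = 0.000204.

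The organic anion transporting polypeptides, which carry bile acids, steroid conjugates, thyroid hormone and prostaglandins, went both ways. At day 14, 5 of 10 tested Slco genes rose and 5 fell, with a median of 0.20. Under library totals 5 rose and 4 fell, and the median was 0.92.

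Slco1a1, which encodes OATP1A1, measured 332, 374 and 266 CPM in controls, 46.1, 116 and 79.3 on day 5, 3.28, 3.29 and 3.896 on day 14 and 2.95, 143 and 0.776 on day 21. Day 5 lay below control without overlap, and day 14 and day-21 replicates 1 and 3 lay far below day 5. The fall at day 14 was -6.54 ± 1.55, adjusted p = 0.00403. At day 5 the log2 fold change of -2.01 ± 1.25 did not pass the test with all libraries (adjusted p = 0.325) and passed it without day-21 replicate 2 (-2.01 ± 0.33, adjusted p = 0.000739). Slco4c1, which encodes the basolateral OATP4C1 of the proximal tubule, measured 34.7, 34.9 and 35.5 CPM in controls, 4.82, 3.805 and 4.14 at day 14 and 5.21, 25.3 and 3.34 at day 21, and fell at day 14 by 3.04 ± 0.60 on the log2 scale.

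Slco2a1 encodes the prostaglandin transporter. It measured 28.03, 18.6 and 25.9 CPM in controls, 26.1, 26.5 and 31.4 on day 5, 44.8, 44.3 and 45.6 on day 14 and 51.5, 18.04 and 38.1 on day 21. It rose at day 14 (0.89 ± 0.29, adjusted p = 0.0211), where all libraries lay above all controls, a call that was lost without control replicate 2 or 3 (adjusted p = 0.0503 to 0.0925). Slco2b1 measured 22.6, 21.6 and 20.4 CPM in controls, 12.97, 18.1 and 16.6 on day 5, 39.97, 39.9 and 41.4 on day 14 and 38.5, 22.1 and 34.1 on day 21. Day 5 lay below control and day 14 above it, with a rise at day 14 of 0.91 ± 0.18, adjusted p = 0.00132. In the fit without day-21 replicate 2, Slco2b1 fell at day 5 (-0.43 ± 0.11, adjusted p = 0.00822) and rose at day 21 (0.74 ± 0.11, adjusted p = 0.000141).

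Slco3a1 measured 166, 181 and 169.97 CPM in controls, 127, 142 and 145 on day 5, 119, 124 and 122 on day 14 and 76.99, 101 and 86.2 on day 21. It was lowest at day 21, with a fall of -0.97 ± 0.11, adjusted p = 0.000319. At day 14 it fell by 0.50 ± 0.11 on the log2 scale under TMM factors, and under library totals the sign turned to 0.23, adjusted p = 0.0526. The 3 Slco genes that also rose at day 14 were Slco4a1, Slco1a5 and Slco5a1. Slco1a5 and Slco5a1 rested on few control counts: 50 pooled counts against 1, a ratio of 37.1 (exact 95% interval 6.37 to 1500), and 148 against 4, a ratio of 27.5 (10.5 to 102).

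Of the 3 ABCB pumps of the cell surface, 2 rose at day 5 and 1 fell at day 21. At day 14, 0 passed edgeR's test, 0 had an unadjusted p under 0.05 and DESeq2 called 0. Under library totals 2 rose at day 14, and at day 21 edgeR called 0, also before adjustment. Abcb1a and Abcb1b both encode P-glycoprotein, the apical drug efflux pump. Abcb1a lies at chr5:8710077-8798575 and measured 8.602, 8.798 and 10.6 CPM in controls, 17.2, 11.7 and 13.1 on day 5, 10.8, 10.6 and 9.204 on day 14 and 6.902, 6.998 and 5.64 on day 21. Day 5 lay above control, day 14 reached above and overlapped it, and day 21 lay below it. The rise at day 5 was 0.58 ± 0.16, adjusted p = 0.0295, and the fall at day 21 -0.52 ± 0.16, adjusted p = 0.024, with day-21 replicate 2 at the level of its group. The rise was lost without control replicate 1, 2 or 3 or day-5 replicate 1 or 3 (adjusted p = 0.056 to 0.143), and the fall without control replicate 3 or day-21 replicate 3 (adjusted p = 0.0728 to 0.089) and under library totals (-0.05, adjusted p = 0.802). Under library totals the step from day 5 to day 14 turned from -0.45 ± 0.16 to 0.14, which did not pass the test.

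Abcb1b measured 9.37, 9.91 and 11.2 CPM in controls, 24.2, 13.8 and 17.1 on day 5, 11.9, 12.2 and 10.8 on day 14 and 8.52, 8.25 and 7.97 on day 21. It rose at day 5 (0.85 ± 0.17, adjusted p = 0.00742), and day 21 lay below day 5 (-1.15 ± 0.17, adjusted p = 0.00221). The 2 genes are close paralogs whose count ratio stayed between 1.06 and 1.41, and reads may have been shared between them. Abcb4, the phospholipid pump of bile, held at most 0.643 CPM in any library and passed no test.

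The ABCB genes of mitochondria and lysosomes moved together and by less. All 5 fell at day 14, with a median of -0.88, and all 5 at day 21, with a median of -0.57; under library totals 2 fell at day 14 and 1 at day 21. Abcb6, which handles porphyrins, measured 42.5, 37.96 and 45.5 CPM in controls, 40.1, 39.1 and 41.96 on day 5, 20.6, 18.5 and 17.99 on day 14 and 24.97, 33.4 and 24.02 on day 21. Day 5 overlapped control and the later days lay below it. The fall at day 14 was -1.14 ± 0.12, adjusted p = 4.53e-05, and the partial rise from day 14 to day 21 was 0.53 ± 0.12, adjusted p = 0.0196. That rise was lost under library totals (0.25, adjusted p = 0.101) and without day-14 replicate 2 or 3 (adjusted p = 0.0747 to 0.0818). Abcb8, a pump of the mitochondrial inner membrane, measured 47.3, 43.5 and 45.8 CPM in controls, 18.9, 20.9 and 18.2 at day 14 and 21.8, 33.7 and 21.04 at day 21, with a fall at day 14 of -1.24 ± 0.15, adjusted p = 9.62e-05. Abcb6 and Abcb10 overlap other counted genes, so their counts are uncertain. The day-14 fall of Abcb9, -0.54 ± 0.13, turned to 0.19 under library totals.

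The ABCC multidrug resistance proteins split by gene. At day 14, 3 of 7 rose and 3 fell, and at day 21 2 rose and 2 fell, or 4 and 2 without day-21 replicate 2. Abcc4 encodes MRP4, an apical pump for organic anions, urate and cyclic nucleotides. It measured 36.99, 50.6 and 48.5 CPM in controls, 76.6, 68.6 and 65.6 on day 5, 97.8, 92.8 and 85.8 on day 14 and 75.3, 72.00 and 65.7 on day 21. Every library after toxin lay above every control, and day-21 replicate 2 lay within the range of its group. The rises were 0.63 ± 0.12, adjusted p = 0.0055 at day 5, 1.02 ± 0.12, adjusted p = 7.37e-05 at day 14 and 0.65 ± 0.12, adjusted p = 0.00325 at day 21.

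Abcc3 encodes MRP3, which exports conjugates toward the blood. It measured 1.96, 2.71 and 1.54 CPM in controls, 2.67, 3.83 and 2.78 on day 5, 15.8, 14.5 and 14.8 on day 14 and 19.2, 3.37 and 18.7 on day 21. Day 14 and day-21 replicates 1 and 3 lay far above control, and day-21 replicate 2 lay within the day-5 range. It rose at day 14 (2.86 ± 0.52, adjusted p = 0.000838) and at day 21 (2.73 ± 0.52, adjusted p = 0.00349, and 3.18 ± 0.19 without replicate 2). Abcc5, another exporter of cyclic nucleotides, measured 23.8, 22.6 and 24.02 CPM in controls, 30.5, 32.03 and 31.05 at day 14 and 31.2, 25.4 and 25.9 at day 21, a rise of 0.41 ± 0.09, adjusted p = 0.00206 at day 14.

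Abcc2 encodes MRP2, the apical pump for conjugated anions, and was the most abundant of the list. It measured 362, 349 and 388 CPM in controls, 307, 303 and 308 on day 5, 169.6, 165 and 143 on day 14 and 282, 299 and 155 on day 21. All 3 days lay below control, and day-21 replicate 1 was near replicate 2. It fell at day 14 (-1.20 ± 0.20, adjusted p = 0.000538) and at day 21 (-0.58 ± 0.20, adjusted p = 0.0387). The day-21 call was lost under library totals (-0.13, adjusted p = 0.493) and without control replicate 1, 2 or 3 (adjusted p = 0.0634 to 0.0915). Abcc6, whose loss causes soft-tissue calcification, measured 8.899, 9.97 and 8.397 CPM in controls, 5.01, 5.03 and 4.03 on day 5, 1.97, 2.31 and 1.78 on day 14 and 1.89, 4.301 and 1.199 on day 21, a fall of -2.17 ± 0.36, adjusted p = 0.000504 at day 14. The fall of Abcc10 at day 14, -0.41 ± 0.15, turned to 0.32 under library totals.

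Of the sulfonylurea receptors, which are channel subunits and not pumps, Abcc9 fell and Abcc8 rose at day 14. Abcc9 measured 18.8, 18.3 and 22.1 CPM in controls, 14.4, 17.3 and 18.8 on day 5, 3.76, 3.56 and 2.63 on day 14 and 4.67, 8.15 and 2.28 on day 21. Its fall at day 14 was -2.57 ± 0.35, adjusted p = 0.000176. Abcc8 held at most 0.611 CPM in any library.

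The ABCG list held 3 tested genes. Abcg2 encodes BCRP, an apical pump for urate and drugs, and measured 395, 430.2 and 385 CPM in controls, 444, 389.9 and 403 on day 5, 146, 148 and 138 on day 14 and 177, 375 and 154 on day 21. Day 5 overlapped control and day 14 lay below it, a fall of -1.49 ± 0.27, adjusted p = 0.000858. Abcg1, a cholesterol exporter of macrophages among other cells, measured 5.04, 6.69 and 5.37 CPM in controls, 5.71, 6.63 and 5.79 on day 5, 18.2, 18.5 and 20.2 on day 14 and 8.89, 6.74 and 14.4 on day 21. It rose at day 14 (1.73 ± 0.23, adjusted p = 0.000152) and came down from day 14 to day 21 (-0.92 ± 0.23, adjusted p = 0.0241), a step that was lost without day-14 replicate 1, 2 or 3 (adjusted p = 0.0655 to 0.0754). Abcg3 measured 0.682, 0.663 and 0.494 CPM in controls, 3.14, 2.87 and 2.87 at day 14 and 0.436, 1.44 and 0.682 at day 21, a rise of 2.27 ± 0.38, adjusted p = 0.000505 at day 14.

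**Figure D3:**
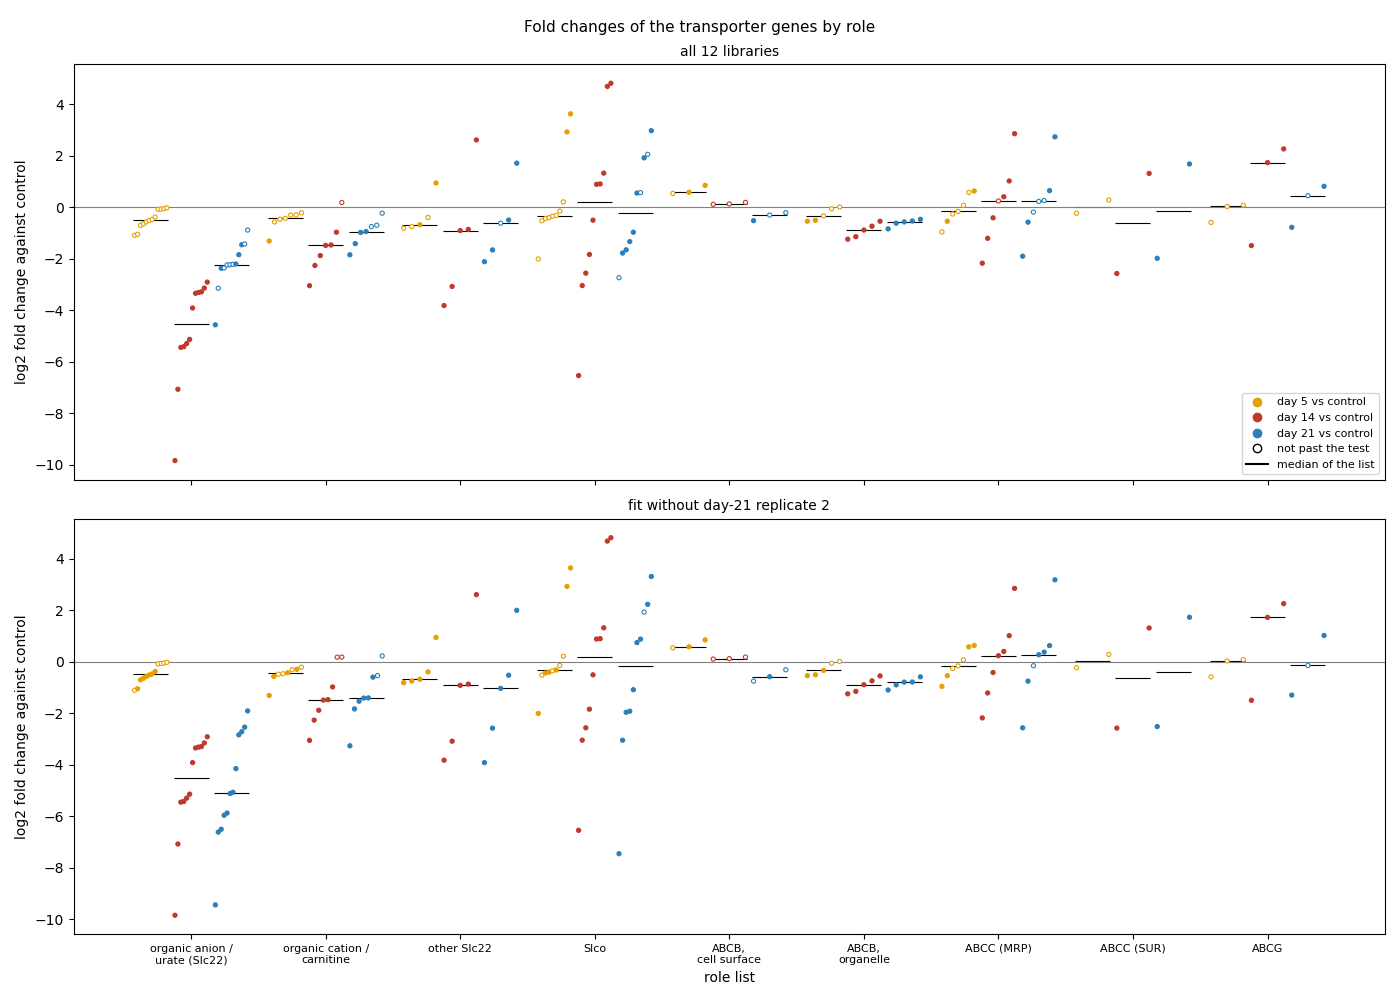
Log2 fold change against control (vertical axis) of each tested transporter gene by role list (horizontal axis) and day, with filled points past the test and bars at list medians, from all 12 libraries (top) and without day-21 replicate 2 (bottom). The organic anion list has a median of -4.52 at day 14 and is lower at day 21 in the bottom panel than in the top one, while the Slco points lie on both sides of 0; under library totals the day-14 sign of Abcb9, Abcc10 and Slco3a1 turns.

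The order of levels also changed. Per length, as RPKM on TMM-scaled libraries, Slc22a12 was highest in controls at 276 and made up 16.1% of the summed level, followed by Slc22a18 at 199, Slc22a6 at 169.5 and Slc22a28 at 165. The ranges of Slc22a6 and Slc22a28 overlapped, and those of the other neighbours among these 4 did not. The same 4 genes held 47% of the summed RPKM in controls, 46.8% on day 5, 24% on day 14 and 39.3% on day 21. These are shares of group means and were not taken per library. The summed RPKM at day 21 was 383, 1204 and 316 in replicates 1, 2 and 3, so that share rests mostly on replicate 2. At day 14 Slc22a12 stood at 28.4 RPKM and Slc47a1 at 26.8.

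**Figure D4:**
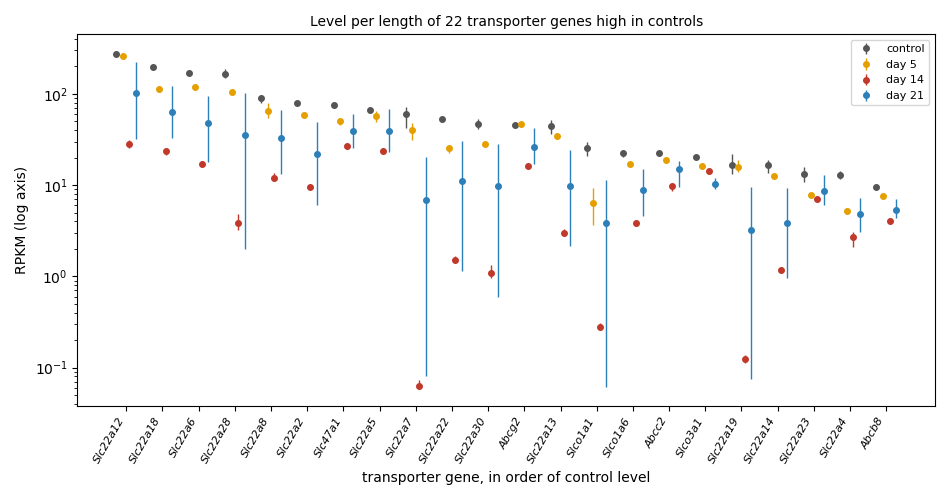
Level per length (RPKM, log axis) of 22 transporter genes high in controls (horizontal axis, in order of the control mean), as group means with bars from the lowest to the highest of 3 libraries. Day-14 means fall to under 1 RPKM for Slc22a7, Slco1a1 and Slc22a19, and the day-21 bars reach up to replicate 2.

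Day-21 replicate 2 was compared with the group means gene by gene, a description made after its position was seen. It lay nearest the day-5 mean for 33 of the 54 transporter genes, or 61.1%, beside 35% of all tested genes. It lay nearest the control mean for 10, or 18.5%, beside 36% of all genes, so over all genes control and day 5 were nearest about equally often. The mean of the other day-21 libraries was nearest for 7, beside 15.3% of all genes, and the day-14 mean for 4, beside 13.8%.

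Genes that work with these carriers were given by lists. Of the partners of organic ion uptake, the dicarboxylate carriers, proton exchangers, sodium pump subunits and scaffold proteins, 10 of 10 fell at day 14, 2 at day 5 and 7 at day 21; without day-21 replicate 2, 7 fell at day 5 and 10 at day 21. Slc13a2, the apical dicarboxylate carrier, measured 31.5, 28.2 and 34.2 CPM in controls, 14.6, 13.2 and 11.8 on day 5, 14.8, 15.9 and 15.3 on day 14 and 18.6, 14.2 and 19.6 on day 21. It fell already at day 5 (-1.24 ± 0.13, adjusted p = 0.000166) and at day 14 (-1.03 ± 0.13, adjusted p = 0.000103), and the day-14 call was lost under library totals (-0.30, adjusted p = 0.186). Fxyd2, a subunit of the sodium pump, fell at day 14 by 1.52 ± 0.17 on the log2 scale. Of the urate and phosphate-type anion carriers outside the families, 6 of 7 fell at day 14 and 5 at day 21, among them the urate carrier Slc2a9 (-1.20 ± 0.12, adjusted p = 2.94e-05 at day 14) and Slc5a8, a carrier of lactate and other monocarboxylates (-3.23 ± 0.46, adjusted p = 0.000224).

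Of 12 tested nuclear receptors and factors known to act on transporter genes, 7 fell and 4 rose at day 14, or 4 and 5 under library totals. Nr1h4, the bile acid receptor FXR, measured 141, 114 and 109 CPM in controls, 161, 171 and 173 at day 5 and 46.2, 45.7 and 46.2 at day 14, with a fall at day 14 of -1.40 ± 0.24, adjusted p = 0.000553. Of 11 tested bile acid, peptide and nucleoside carriers, 4 fell and 2 rose at day 14, with Slc28a1 at -2.72 ± 0.31, adjusted p = 6.19e-05 and the low Slc28a2 at 1.72 ± 0.35, adjusted p = 0.00162. Under library totals the falls of Slc51b (-0.42, edgeR adjusted p = 0.114), Slc10a2 (-0.14, 0.544) and Slc29a3 (0.04, 0.78) were lost. Slc15a2 (0.55, edgeR adjusted p = 0.00412) and Slc29a2 (0.65, 0.0143) then rose as well. Of 21 tested ABC genes outside the 3 families, 9 fell and 7 rose, with Abca9 at 1.24 ± 0.13, adjusted p = 4.32e-05 and Tap2, a subunit of the antigen peptide transporter, at 1.75 ± 0.16, adjusted p = 1.73e-05.

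Markers of the cell types that hold the carriers moved with them, and their part in the results was not tested. Of 12 proximal tubule markers, 12 fell at day 14 and 7 at day 21, or 12 at day 21 without replicate 2. At day 5 edgeR called 0, with 2 at an unadjusted p under 0.05, DESeq2 called 1 of 9, and 6 fell without day-21 replicate 2. Their summed level was 14400 to 15770 CPM in controls, 8793 to 10100 on day 5, 2279 to 2390 on day 14 and 2206, 2725 and 10940 on day 21, the highest being replicate 2. Their log2 fold changes at day 14 ran from -8.69 (Slc7a13) to -0.36 (Slc5a1), with a median of -2.29; 36 of the 54 transporter genes lay within that range, 1 below it and 17 above it. Slc13a3 stands both in this list and among the uptake partners.

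Other lists moved at day 14 too. All 5 macrophage markers rose, with a summed level of 64.3 to 84.5 CPM in controls and 624 to 648 CPM at day 14. All 4 fibroblast markers rose, from 85.8 to 131.6 CPM in controls to 730 to 757 CPM. All 4 injured tubule markers rose, from 13.1 to 16.4 CPM to 1977 to 2029 CPM. Of loop and distal tubule markers 4 of 6 fell, of collecting duct 3 of 5, of podocyte 4 of 5 and of endothelium 3 of 5. Erythroid markers fell in 4 of 4, with 563.5 to 1095 CPM in controls and 7.23 to 92.7 CPM at day 14, and liver-type markers in 3 of 3 tested. Of T and B cell markers 2 of 3 tested rose, and of the fat and adrenal lists, with 3 and 1 tested, edgeR called 0, also before adjustment, and DESeq2 0 of 1 and 1 of 3. Markers that stayed at or under 0.5 CPM in every library were Cd79a and Ms4a1 of B cells, Cps1 of liver, and Cyp11a1 and Cyp21a1 of the adrenal gland. Of the 4 tested Y-linked genes 2 fell, and Xist held 0.0235 to 0.099 CPM.

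The 6 genes that were not tested were Slco1b2, Slco1c1, Slc47a2, Abcg4, Abcg5 and Abcg8, with at most 0.247 CPM in any library. The lowest ratio to control among them was that of Abcg8 at day 14, with 0 pooled counts against 10 in controls, for which the exact 95% interval reached up to 0.331. Another 8 symbols of the same families stayed under the minimum of 10 counts: Abcb5 with 7, Abcc12 with 3, Abcb11, the bile salt pump, with 2, and Slco6b1, Slco6c1, Slco6d1, Slc22a16 and Slc22a20 with 0.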

How the data were processed

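Poly(A)-selected RNA of whole kidneys was sequenced from 12 Pod-TRECK mice, 3 per group. The authors deposited raw counts of reads per gene with gene lengths in bases, in 1 table. Per the submitters' processing notes, reads passed fastp 0.20.0 and featureCounts on GRCm39; paralogs and overlapping genes may share reads, since the aligner, the strand setting and the rule for reads with several matches were not given in the sources used here. Sample titles gave each library's group and replicate number. All libraries carry 1 batch label.

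From these counts, edgeR 4.0.16 (limma 3.58.1, R 4.3.3) tested the 19821 genes kept by filterByExpr, with TMM factors, 1 coefficient per group and 1 spread shared by all 12 libraries, in 6 comparisons and a joint test. P-values were adjusted by Benjamini-Hochberg over all genes and called under 0.05. CPM and RPKM use TMM-scaled totals. Ratios of low counts pool 3 libraries per group on the same scale, with exact 95% counting intervals. The fit was tested on simulated counts with known changes. Pairs of libraries of a group differed beyond sampling noise, with a chi-square per degree of freedom of 4.93 for day-14 replicates 1 and 2 and of at least 12.6 for every other pair, so none was counted as a duplicate. That does not show separate mice: day-14 replicates 1 and 2 also had nearly equal summed fat (124.7 and 125.0 CPM) and erythroid (7.23 and 7.24 CPM) markers, against 6.60 and 92.7 CPM in replicate 3.

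Named genes were a list of 17 renal carriers, up to 2 further genes per role list with the smallest joint p and at least 1 CPM in a group, and genes called higher on 1 day and lower on another; the extremes of ranges were added. Partner lists gave the 2 genes with the smallest joint p. Some of the genes so named, and 8 of the 18 promoter patterns searched, are not reported here, while counts and sums over lists include every gene. The genes, lists and tests were chosen with earlier results of these data known. The promoter patterns, gene clusters, count ratios of gene pairs, pooled ratios and nearest-group counts were chosen after values were seen. Alternatives were median-of-ratios factors, library totals, DESeq2 1.42.0, no filter, only the libraries compared, a replicate block, and each library left out. A gene's direction was counted as reversed only where it was called in at least 1 of the 2 fits.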

Additional observations from a re-analysis of the deposited data

Results flagged for a closer look

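Abcb1a, which encodes a P-glycoprotein of the mouse, rose at day 5 and fell at day 21 against the same controls. Its log2 fold change from day 5 to day 21 was -1.10 ± 0.16 (edgeR adjusted p = 0.00183), with all 3 day-21 libraries below all 3 day-5 libraries. A called difference between the 2 days was a condition of being listed here, so it is no separate support. Among the 54 tested genes, only those called in opposite directions against control at 2 days, with the days also differing, were listed here, and with all libraries Abcb1a was the 1 such gene. The rise at day 5 was lost without control replicate 1, 2 or 3 or day-5 replicate 1 or 3 (edgeR adjusted p = 0.056 to 0.143). The fall at day 21 was lost under library totals (-0.05, adjusted p = 0.802). It was also lost without control replicate 3 (0.0728) or day-21 replicate 3 (0.089), and in the fit of only the 6 libraries compared (0.0799). Abcb1b did not pass edgeR's test at day 21 against control (-0.30, adjusted p = 0.174). Without day-21 replicate 2, Slco2b1 also had opposite calls, lower at day 5 (-0.43, adjusted p = 0.00822) and higher at day 21 (0.74, adjusted p = 0.000141), and the edgeR difference between these days was 1.18 (adjusted p = 5.52e-06). Whether Abcb1a shares reads with its paralog Abcb1b was not tested.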

How the results depend on the processing

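The counts of falling and rising genes at day 14 moved least: with each library left out in turn, 36 to 37 fell and 10 to 13 rose. The other ranges were 2 to 24 lower and 2 to 7 higher at day 5, and 12 to 37 lower and 5 to 11 higher at day 21. From day 5 to day 14, 28 to 35 fell and 8 to 11 rose. From day 14 to day 21, 1 to 9 fell and 0 to 24 rose, the 0 without day-14 replicate 2 (18 at an unadjusted p under 0.05). Day 21 against day 5 gave 5 to 34 lower and 2 to 8 higher. The joint test gave 46 to 52. The highest counts lower at day 5 (24), at day 21 (37) and between days 5 and 21 (34) came without day-21 replicate 2.

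Fits of only the 6 libraries compared gave 25 lower at day 5, 4 higher and 6 lower at day 21, 0 and 0 from day 14 to day 21, and 1 higher and 2 lower between days 5 and 21. Those edgeR counts of 0 were 13 higher and 9 lower at an unadjusted p under 0.05, and stand beside 8 and 7 with all libraries and 14 and 8 with DESeq2. DESeq2 also gave 8 lower at day 5. With no filter, 2 fell at day 5 and 4 were higher at day 21 than at day 5. Library totals gave 3 lower at day 5, 17 higher at day 14 than day 5, and 12 higher at day 21 than day 5. The replicate block moved the 8 genes higher at day 21 than day 14 to 1, and no other count by over 1.5 times. Correlations of deviations between same-numbered libraries ran from -0.14 to 0.171, and 4 of 18 exceeded 0.1. Differently numbered libraries were not compared, so these values do not settle whether replicate numbers pair the mice. The cause of the moves in the counts was not tested.

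Library totals shift the median of all genes by 0.729 at day 14, 0.483 at day 21 and 0.143 at day 5, and the share of called genes that are higher from 52.1% to 85.6% at day 14, from 56.8% to 88.3% at day 21 and from 65.7% to 77.7% at day 5. Among the transporter genes they reversed Slco3a1 (0.23), Abcb9 (0.19) and Abcc10 (0.32) at day 14. From day 5 to day 14 they reversed Slco3a1 (0.40), Abcb9 (0.55), Slc22a23 (0.43) and Abcb1a (0.14). Of the partner-list genes that fell at day 14, Nr1h2, Slc29a3, Abca2, Abca5, Abcf2 and Abcf3 turned to a positive sign.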
